A study of Mus musculus with 10 samples.

Results

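The lysosomal route of glycogen breakdown and the autophagy of glycogen (glycophagy) were followed through 10 genes, chosen by name as an alternative way of releasing glucose from glycogen: Gaa, Stbd1, Gabarap, Gabarapl1, Gabarapl2, Map1lc3a, Map1lc3b, Lamp1, Lamp2 and Tfeb. They are 10 of the 24470 gene entries in the deposited count table, and 10 of 10 were among the 13941 entries with enough counts to be tested. RNA came from testes of 5 C57BL/6 mouse embryos at E12.5. The treated gonad of an embryo received 75 µM GPI, a small-molecule inhibitor of glycogen phosphorylase, and its partner the vehicle, DMSO, so that each treatment has 5 testes, matched by mouse. Culture lasted 48 h with the mesonephros attached; the gonad was then cut away from it, and RNA of the whole organ, with every cell type in it, was sequenced as 1 library per testis. The vehicle testes are the reference for all comparisons. Depth was alike in the 2 groups: a vehicle library had 11114376 counts in the median (lowest 10203679, highest 15590223) and a GPI library 11691690 (lowest 11025409, highest 15635322). The GPI library of mouse 1 stood apart from the other 4 GPI libraries: chi-square per degree of freedom, a measure of how far the counts of 2 libraries differ, was 21.7 to 27.8 in its 4 pairs with them and 7.48 to 11 in the other 6 GPI pairs. The 10 pairs of vehicle libraries gave 6.42 to 21.2. The cause was not tested, and several results are also given without this mouse.

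Glycogen is taken apart in the cytosol by glycogen phosphorylase, the target of GPI. A second route runs through the lysosome: STBD1 binds glycogen and, through an ATG8-interacting motif, GABARAPL1, autophagosomes carry the glycogen to lysosomes, and acid alpha-glucosidase, encoded by Gaa, hydrolyses it there to glucose. Loss of this enzyme causes Pompe disease, in which glycogen fills lysosomes, and TFEB is a transcription factor that switches on many lysosomal and autophagy genes through DNA elements built around the letters CACGTG. Whether the genes of this second route differ in RNA when the cytosolic enzyme is inhibited is the question the comparison addresses.

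Of the 10 genes 0 were called different between GPI and vehicle at an FDR of 0.05, using the quasi-likelihood test of edgeR blocked by mouse and a Benjamini-Hochberg adjustment across every tested gene; of all tested genes, 22.9% were (11.1% higher and 11.9% lower with GPI). This split depends on the scaling: 48.3% of the calls were higher with TMM, and 38.6% of 3210 calls with total counts only. At an unadjusted p under 0.05 the same test counted 3 of the 10 genes, Gaa, Map1lc3a and Lamp1. The count over all 13941 tested genes was 4742, a similar share. DESeq2 called 1 of the 10, Gaa, and limma-voom 0. In each of the 10 genes the ranges of the 5 vehicle and the 5 GPI testes overlapped, whereas they did not in 16.1% of all tested genes. The median log2 fold change of the 10 genes was 0.04, against 0.02 over all tested genes. Without mouse 1, whose GPI library stood apart, 0 of the 10 genes and 3082 of all genes were called, and the median of the 10 was -0.05; the log2 fold change was then 0.33 for Gaa, 0.44 for Map1lc3a, -0.15 for Lamp1 and -0.15 for Map1lc3b. In 5 of 5 mice 2 of the 10 genes, Lamp1 and Map1lc3b, were lower with GPI and 0 were higher. Over all 13941 tested genes 2113 were lower and 2144 higher in 5 of 5. The fold changes with an adjusted p nearest to the threshold were those of Gaa, which was higher with GPI in 4 of 5 mice, and Lamp1, which was lower in 5 of 5.

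The promoters of these 2 genes are shown because theirs were the only windows of the 10 genes in which the core letters of the TFEB element were found. Windows of 250 bases before the start of transcription were read from RefSeq (build GRCm38.p6) for 9 of the 10 genes, 11 windows in all with 3 for Tfeb; Map1lc3a had no entry. Each is printed from 5′ to 3′ on the strand of its gene with every CACGTG in capitals, for Gaa from chr11:119267713-119267962, plus strand, and for Lamp1 from chr8:13158911-13159160, plus strand.
Gaa: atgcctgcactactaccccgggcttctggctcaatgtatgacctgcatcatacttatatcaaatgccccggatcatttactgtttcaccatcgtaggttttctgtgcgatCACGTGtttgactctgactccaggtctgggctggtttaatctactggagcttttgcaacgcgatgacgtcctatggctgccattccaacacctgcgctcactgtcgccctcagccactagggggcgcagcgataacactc
Lamp1: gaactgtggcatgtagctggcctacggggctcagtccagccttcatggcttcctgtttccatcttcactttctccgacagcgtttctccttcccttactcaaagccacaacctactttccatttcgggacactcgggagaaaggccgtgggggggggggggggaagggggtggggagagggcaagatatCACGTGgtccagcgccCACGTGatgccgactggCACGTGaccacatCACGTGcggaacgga
The Gaa window held CACGTG 1 time, beginning 140 bases before the start, and the Lamp1 window 4 times, beginning 61, 45, 28 and 15 bases before it. CACGTG reads the same on both strands, and it was found in 1978 of the 32851 windows in the table (6.02%) and in 8.18% of the windows of tested genes. The longer TCACGTG, searched on both strands and holding CACGTG within it, was present at each of these 5 places and in 1028 windows of the table (3.13%), or 4.79% of those of tested genes. As many as 4 copies of CACGTG were found in 7 windows of the table (0.0213%). A match describes the letters of a window and is not evidence of binding, and the remaining 9 windows of the 10 genes did not contain these letters.

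Gaa encodes the lysosomal enzyme that hydrolyses glycogen. In the vehicle testes of mice 1 to 5 its normalized counts (counts divided by the library size after TMM scaling and brought to a common depth) were 157, 237, 145, 157 and 208, and in the GPI testes of the same mice 366, 200.2, 252, 257 and 235. The GPI testes of mice 1, 3 and 4 lay above all 5 vehicle testes, those of mice 2 and 5 lay within the vehicle range, and mouse 2 had less Gaa RNA with GPI than with vehicle. Mean normalized counts were 181 ± 39.8 (SD, n = 5) with vehicle and 262 ± 62.2 with GPI. The log2 fold change was 0.53 ± 0.18 (SE, 95% interval 0.13 to 0.92), a fold of 1.44 with an interval from 1.10 to 1.89. Here and below, a 95% interval is that of 1 gene alone, without adjustment for the number of genes tested. The adjusted p by edgeR, which has that adjustment, was 0.0530. This value lay next to the threshold, and the call turned on the setting: Gaa was called in 4 of 12 alternatives, with DESeq2 (adjusted p = 0.0494), without the mouse block (0.0379), without the low-count filter (0.0183) and without mouse 2 (log2 fold change 0.72, adjusted p = 0.00980), and over the 12 its adjusted p ran from 0.00980 to 0.205. Without mouse 1, the mouse with the highest ratio, the log2 fold change was 0.33.

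**Figure D1:**
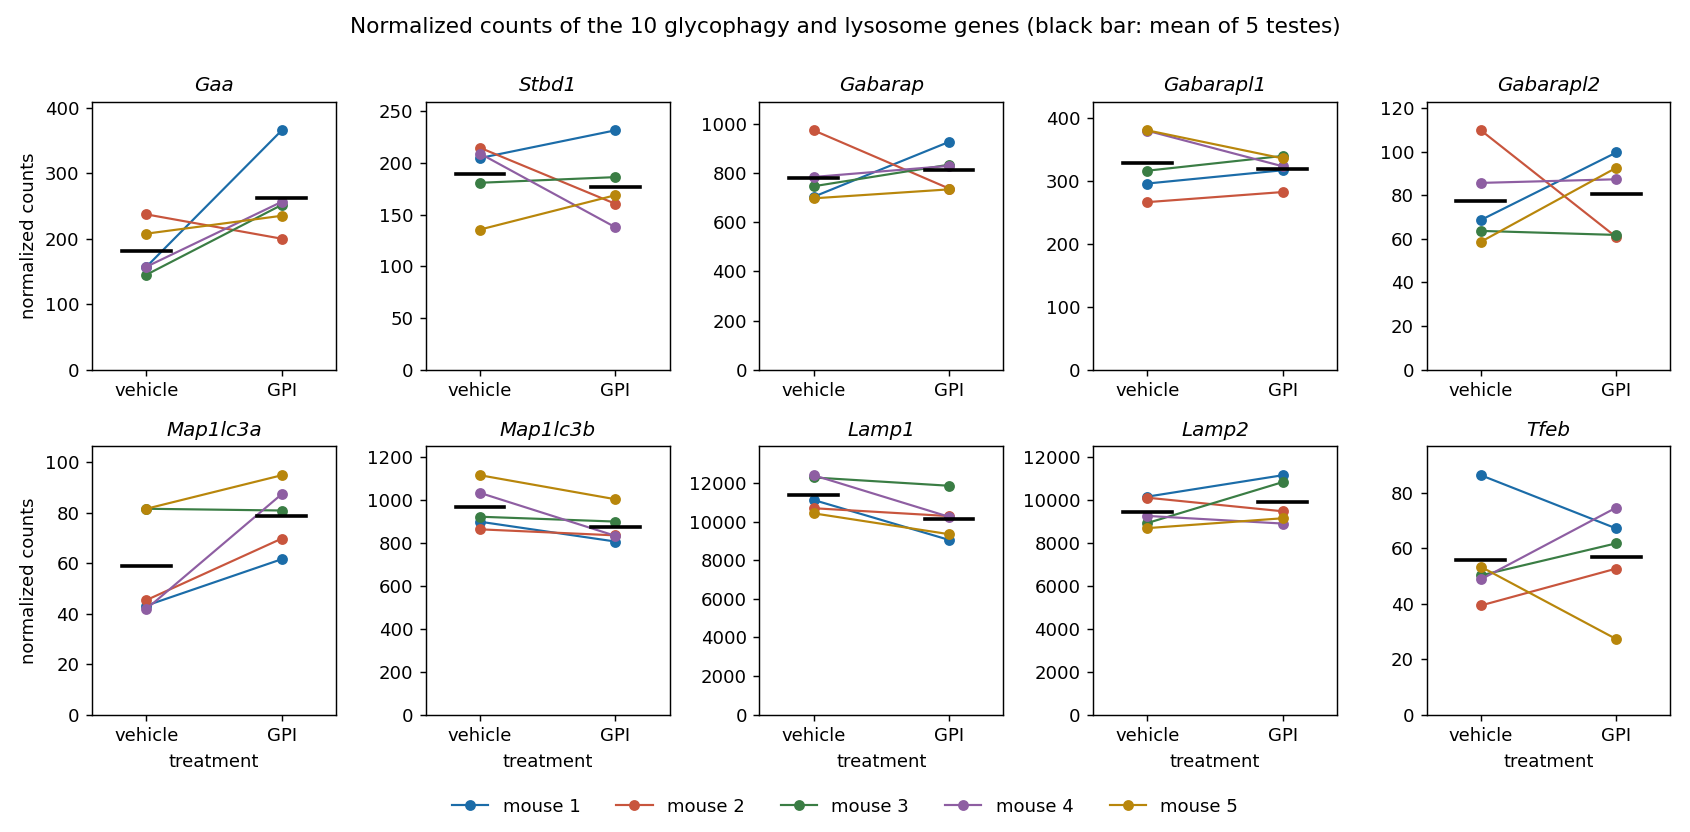
Normalized counts (vertical axes, each from 0) of the 10 genes in the vehicle and GPI testes of 5 mice; a line joins the 2 testes of a mouse and black bars are means of 5. Gaa went from a mean of 181 to 262 with mouse 2 moving the other way. Lamp1 and Map1lc3b were lower with GPI in 5 of 5 mice, as were 2113 of all 13941 tested genes. In every panel the 2 groups overlap.

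Stbd1 encodes the starch-binding domain protein that tethers glycogen to the autophagosome. Its normalized counts were 205, 215, 181, 209 and 136 in the vehicle testes of mice 1 to 5 and 232, 161, 186, 138 and 169 in their GPI testes. The highest and the lowest vehicle testis enclosed 4 of the 5 GPI testes, and the GPI testis of mouse 1 was the highest of the 10. The means were 189 ± 32.6 and 177 ± 35.2 (SD, n = 5), the log2 fold change was -0.10 (95% interval -0.43 to 0.24) and the adjusted p by edgeR was 0.725. The fold had an interval of 0.741 to 1.18, and a difference within it cannot be told from no difference with 5 mice. Without mouse 4 the log2 fold change was 0.03.

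The 5 ATG8 genes encode the ubiquitin-like proteins that are attached to the autophagosome membrane and hold cargo receptors; GABARAPL1 is the member through which STBD1 is known to bind. Gabarapl1 had normalized counts of 296, 266, 316, 379.5 and 380.2 in the vehicle testes and 317, 282, 339, 323 and 336 in the GPI testes. The 5 GPI values fell within the vehicle range, which was the wider of the 2. Its log2 fold change was -0.03 (95% interval -0.26 to 0.20), with an adjusted p of 0.891 by edgeR. Gabarapl1 lies on the plus strand and overlaps 1700101I11Rik on the minus strand. Since reads were counted without regard to strand, the 2 cannot be told apart where they overlap. The study's methods name no option that assigns a read to 2 genes, so such reads may be missing from the count of Gabarapl1. The entry 1700101I11Rik itself held between 1 and 16 counts per library.

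Gabarap was counted at 704, 975, 747, 785 and 698 normalized counts in the vehicle testes and at 928, 738, 835, 830.1 and 734 in the GPI testes. The vehicle testis of mouse 2 was the highest of all 10, and mouse 2 alone had less with GPI. The log2 fold change was 0.06 (95% interval -0.17 to 0.29; adjusted p by edgeR = 0.738), and without mouse 1 it was -0.04. Gabarapl2 lay between 58.7 and 109.8 in vehicle testes and between 60.8 and 99.6 in GPI testes, and its ratio was higher with GPI in 3 of 5 mice (log2 fold change 0.07, 95% interval -0.43 to 0.57).

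Map1lc3b, which encodes the LC3 protein most used to mark autophagosomes, had normalized counts of 897, 862, 920.1, 1031 and 1113 with vehicle and 805, 833, 898, 831 and 1001 with GPI. Each mouse had less with GPI, and the GPI testes of mice 1, 2 and 4 lay below all 5 vehicle testes. The means were 965 ± 104 and 874 ± 79.2 (SD, n = 5), and the log2 fold change of -0.14 (95% interval -0.31 to 0.03) had an adjusted p of 0.235 by edgeR. Its relative Map1lc3a had 43.2, 45.3, 81.5, 41.8 and 81.5 normalized counts with vehicle and 61.6, 69.7, 80.8, 87.3 and 94.8 with GPI. The vehicle testes split into 2 high values, of mice 3 and 5, and 3 low ones, and the GPI testes of mice 4 and 5 exceeded them all. Map1lc3a had a log2 fold change of 0.47 (95% interval 0.00 to 0.93), was higher with GPI in 4 of 5 mice and had an adjusted p of 0.146 by edgeR.

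Of the 5 ATG8 genes, 3 share sequence with other genes, which makes their counts less certain. Of the 50-base stretches of the longest GENCODE transcript, 18.6% in Gabarapl1 also occur in its antisense neighbour, 17.0% in Gabarapl2 in processed pseudogenes, and 9.39% in Map1lc3b in pseudogenes and other genes; in Gabarap and Map1lc3a the share was 0. Among the other members it was 7.11% in Lamp1, shared with its neighbour Grtp1, and 0 in Gaa, Stbd1, Lamp2 and Tfeb. For Map1lc3b the longest transcript has 4138 bases, and the exons of its transcripts paired with RefSeq have 2532. Part of the Map1lc3b sequence searched therefore lies outside those exons.

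LAMP1 and LAMP2 are the most abundant glycoproteins of the lysosomal membrane, and LAMP2 is the protein lost in Danon disease, in which glycogen-filled autophagic vacuoles build up. Lamp1 had normalized counts of 11117, 10689, 12281, 12398 and 10425 in the vehicle testes and 9048, 10282, 11853, 10244 and 9345 in the GPI testes. The GPI testes of mice 1, 2, 4 and 5 lay below all 5 vehicle testes, and only the GPI testis of mouse 3 lay within their range. The means were 11382 ± 909 and 10154 ± 1094 (SD, n = 5). The log2 fold change was -0.17 ± 0.07 (SE; 95% interval -0.31 to -0.03), a fold of 0.890 with an interval from 0.808 to 0.982, and the adjusted p by edgeR was 0.0847. With total counts in place of TMM scaling Lamp1 was called (log2 fold change -0.22, adjusted p = 0.0169); over the 12 alternatives its adjusted p ran from 0.0169 to 0.265 and its log2 fold change from -0.22 to -0.14.

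Lamp2 had normalized counts of 10152, 10104, 8921, 9255 and 8685 with vehicle and 11149.7, 9471, 10829.5, 8899 and 9145 with GPI. The GPI testes of mice 1 and 3 were above all vehicle testes and the other 3 within their range. Its log2 fold change was 0.07 (95% interval -0.08 to 0.22), higher in 3 of 5 mice, with an adjusted p of 0.547 by edgeR; without mouse 3 it was -0.00212. The interval of the fold for Lamp2, 0.945 to 1.16, is among the narrowest of the 10 genes.

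Tfeb was the least abundant of the 10. It had 86.4, 39.4, 50.2, 48.8 and 53.3 normalized counts in the vehicle testes and 67.2, 52.7, 61.8, 74.7 and 27.2 in the GPI testes. Mice 2, 3 and 4 had more with GPI, mice 1 and 5 less, and the testis with the most and the testis with the least were both among mice 1 and 5. The log2 fold change was 0.01, but its 95% interval ran from -0.56 to 0.59, so a difference of that size in either direction could not have been told from none. Its sign changed with total counts in place of TMM scaling (-0.04) and without mouse 2, 3 or 4. TFEB is controlled largely through its phosphorylation and its place in the cell, which counts of RNA do not measure.

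**Figure D2:**
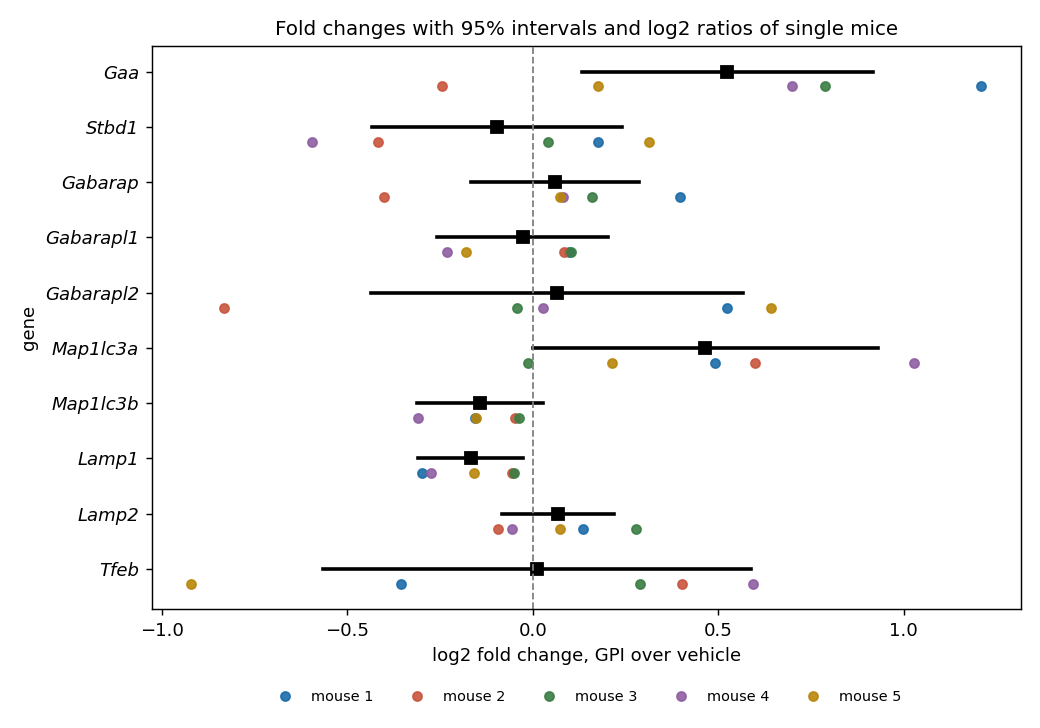
Log2 fold changes of the 10 genes, GPI over vehicle (horizontal axis): squares are edgeR estimates, bars their 95% intervals, and coloured dots the log2 ratios of single mice. The estimates run from -0.17 for Lamp1 to 0.53 for Gaa, and the bar of Tfeb, from -0.56 to 0.59, is the widest.

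The levels of different genes were compared as FPKM, counts divided by exon length and library size. Exon length is the union of all exons of a gene's GENCODE transcripts paired with RefSeq. For Lamp2 this union was 5039 bases, though its longest GENCODE transcript has 3604, and for Lamp1 both were 2229. The FPKM of Lamp2 and the ratio of Lamp1 to Lamp2 depend on this choice. In counts, without lengths, Lamp2 was 0.833 of Lamp1 with vehicle and 0.983 with GPI in the mean. In the vehicle testes Lamp1 had the highest level, 414 ± 33.1 FPKM (SD, n = 5), followed by Lamp2 (152 ± 10.9), Gabarap (47.0 ± 6.82), Map1lc3b (30.9 ± 3.35) and Gabarapl1 (14.6 ± 2.27). The ranges of these 5 genes over the vehicle testes did not meet. Below them the mean levels were 7.73 FPKM for Stbd1, 4.28 for Map1lc3a, 4.04 for Gaa and 3.74 for Gabarapl2, and neighbours in this order overlapped in range; Tfeb was lowest, with 1.58 ± 0.509. The RNA of the enzyme was measured at 0.992% ± 0.284 of the FPKM of Lamp1 with vehicle and at 1.61% ± 0.509 with GPI, and the 2 groups overlapped in this share, which reached 1.36% with vehicle and 2.48% with GPI. The ratio of Lamp1 to Lamp2, on the same scale, was 2.74 ± 0.322 with vehicle and 2.33 ± 0.299 with GPI, again with overlapping ranges (2.39 to 3.11 and 1.83 to 2.60).

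**Figure D3:**
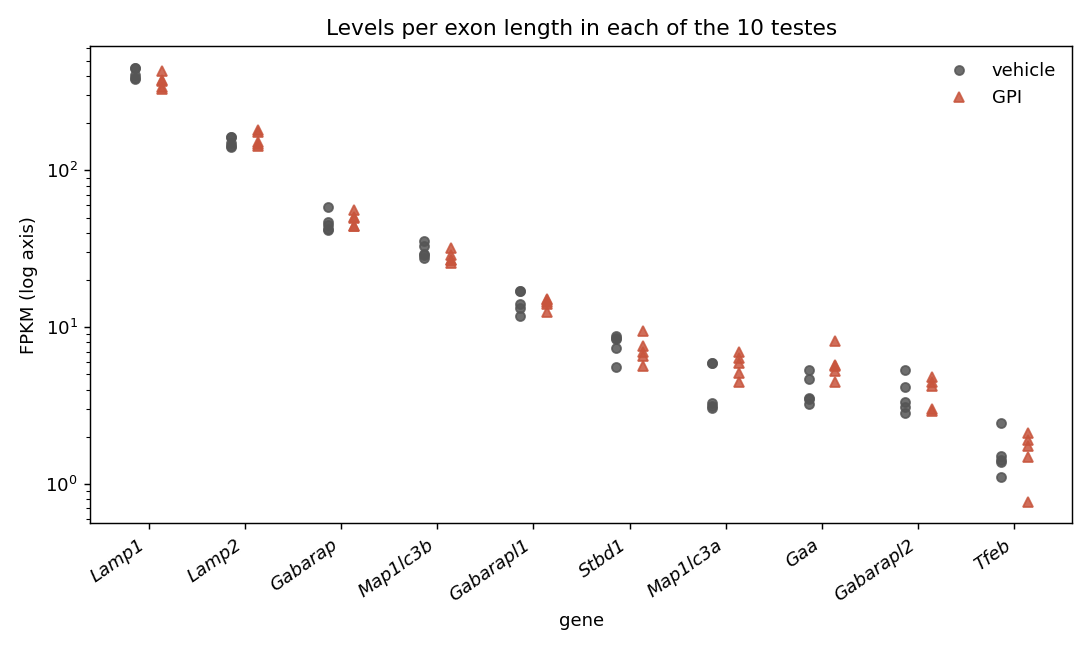
FPKM (log axis) of the 10 genes in each of the 5 vehicle testes (circles) and 5 GPI testes (triangles), in order of the vehicle mean. Lamp1 (414) and Lamp2 (152) stand far above Gaa (4.04) and Tfeb (1.58), and the order of levels is about the same in both groups.

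The ATG8 genes added up to 100.5 ± 6.43 FPKM with vehicle and 100.7 ± 5.23 with GPI. Of this sum Gabarap took 46.7% ± 5.18 with vehicle and 48.5% ± 3.60 with GPI, Map1lc3b 30.8% ± 3.16 and 27.8% ± 2.59, and Gabarapl1 14.5% ± 2.12 and 14.1% ± 0.536. Each of these shares overlapped between the 2 groups. Map1lc3a made up 4.27% ± 1.53 and 5.72% ± 0.931 of the sum; the shares were not tested, and Gabarapl2 made up 3.71% ± 0.854 and 3.85% ± 0.745.

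The other genes of the pathway were described by 10 lists. Of 40 tested lysosomal hydrolases other than Gaa, 12 were higher with GPI and 1 was lower (edgeR, adjusted p at most 0.05), or 30.0% higher against 11.1% of all tested genes, and the median log2 fold change was 0.23. The cathepsin Ctsl, the most abundant of them, went from 6820 ± 1138 to 11252 ± 2614 normalized counts (SD, n = 5; log2 fold change 0.71 ± 0.11, SE; adjusted p = 0.000321), higher in 5 of 5 mice. The acid ceramidase Asah1 (0.62) and the cathepsin Ctsf (0.77) also rose. Ctsc, a cathepsin that activates proteases of immune cells, was the 1 hydrolase that fell, from 238 ± 72.7 to 142 ± 21.1 normalized counts (log2 fold change -0.70, adjusted p = 0.00699). The count of called hydrolases was 6 without mouse 3 and 6 without mouse 4.

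Among 25 genes of the lysosomal membrane and its transporters, 10 were higher (40.0%, against 11.1% of all tested genes), 0 were lower and the median was 0.37. At an unadjusted p under 0.05 by edgeR there were 13, against 4742 of 13941 over all tested genes. DESeq2 and limma-voom each called 10. Laptm4a rose from 7341 ± 350.2 to 9866 ± 396 normalized counts (log2 fold change 0.43 ± 0.06; adjusted p = 0.000186), and the vehicle and GPI testes did not overlap. Ostm1, a partner of the chloride transporter of lysosomes, had a log2 fold change of 0.88, and Hgsnat, the acetyltransferase of heparan sulfate breakdown, of 0.62. Of the 16 genes of the V-ATPase, the proton pump that acidifies lysosomes, 6 were higher (37.5%), among them Atp6ap2 (0.52), Atp6v1a (0.33) and Atp6v0b (0.55, called in 9 of 12 alternatives), and 0 were lower, with a median of 0.31. This count was 3 with total counts only, 3 without mouse 1, 1 without mouse 3 and 2 without mouse 4. In the sorting of hydrolases by mannose 6-phosphate, 2 of 11 genes were higher, Sort1 (0.49) and M6pr (0.33), a share of 18.2% against 11.1% of all tested genes.

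Taken as a union formed after the values were seen, these 4 lysosome lists held 30 higher and 1 lower among 92 tested genes (32.6% higher), and the median log2 fold change was 0.24. Gaa, at 0.53, lay above this median, and Lamp1 and Lamp2, at -0.17 and 0.07, lay under it. No test compared the 10 genes with these lists. The letters CACGTG were found in 19 of the 83 promoter windows of the 4 lists (22.9%), against 1143 of the 13975 windows of all tested genes (8.18%). They were in 6 of 25 windows of genes called higher (24%) and in 13 of 58 windows of the others (22.4%). The longer TCACGTG was in 17 of the 83 windows (20.5%), in 4 of the 25 (16%) and in 13 of the 58 (22.4%). In the 4 autophagy lists described below, CACGTG was found in 7 of 52 windows (13.5%).

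Autophagy itself was described by 4 lists, for initiation, ATG8 conjugation, receptors and fusion. Of 17 genes of autophagy initiation, such as the ULK1 kinase complex and its partners, edgeR, DESeq2 and limma-voom each called 0. By edgeR 1 of the 17 had an unadjusted p under 0.05, against 4742 of 13941 over all tested genes. Without mouse 2, 1 gene was called. In the ATG8 conjugation machinery 1 of 10 genes was higher (10%, against 11.1% of all tested genes), Atg10 (log2 fold change 0.37, adjusted p = 0.0218 by edgeR), and it was not called without mouse 3, 4 or 5. In autophagosome fusion 1 of 13 was higher (7.69%), the SNARE Snap29 (0.31, adjusted p = 0.0476), which kept its call in 3 of 12 alternatives.

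Of 12 tested autophagy receptors 3 were lower with GPI (25.0%, against 11.9% of all tested genes) and 0 were higher: Bnip3 and Bnip3l, receptors of mitophagy that low oxygen induces, and Retreg1, a receptor for the endoplasmic reticulum. Bnip3 had normalized counts of 1157, 989, 775, 742 and 889 in the vehicle testes of mice 1 to 5 and 1974, 429.7, 191, 272 and 299 in their GPI testes. The GPI testes of mice 2 to 5 lay below all vehicle testes, while that of mouse 1 was the highest of the 10. The log2 fold change was -1.08 with mouse 1 (adjusted p = 0.0153 by edgeR) and -1.57 without it (adjusted p = 5.88e-07 by edgeR). Bnip3 was not called by DESeq2 (adjusted p = 0.0602), without the mouse block (0.487 by edgeR) or without mouse 2, 3, 4 or 5. Over the 12 alternatives its log2 fold change ran from -1.57 to -0.53. Bnip3l had 2667, 2799, 2429.9, 2563 and 2198 normalized counts with vehicle and 2668, 1719.5, 1583, 1671 and 1752 with GPI. The GPI testis of mouse 1 again stood above the other 4 and within the vehicle range, and the log2 fold change was -0.45 (adjusted p = 0.00363), or -0.58 without mouse 1. Retreg1 had a log2 fold change of -0.83 (adjusted p = 0.0219), lower in 4 of 5 mice, and was not called without mouse 1, 2, 3 or 5.

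The cytosolic route, the one that GPI inhibits, was followed through the 3 glycogen phosphorylase genes, of which edgeR, DESeq2 and limma-voom each called 0 and 1, Pygl, had an unadjusted p under 0.05. Pygl, the liver form of glycogen phosphorylase, had normalized counts of 553, 462, 357, 439 and 411 with vehicle and 657, 336, 249, 235 and 321 with GPI. As with Bnip3, mouse 1 alone had more with GPI; the log2 fold change was -0.39 (adjusted p = 0.0608 by edgeR) and without mouse 1 it was -0.57 (adjusted p = 0.00364). Pygb, the brain form, went from 1207 ± 104 to 1344 ± 166 normalized counts (log2 fold change 0.15), and the muscle form Pygm from 61.7 ± 18.7 to 46.5 ± 13.5 (log2 fold change -0.39). Both values moved with the setting: over the 12 alternatives the log2 fold change ran from 0.04 to 0.20 for Pygb, where mouse 2 had the highest ratio (0.58), and from -0.62 to -0.17 for Pygm.

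**Figure D4:**
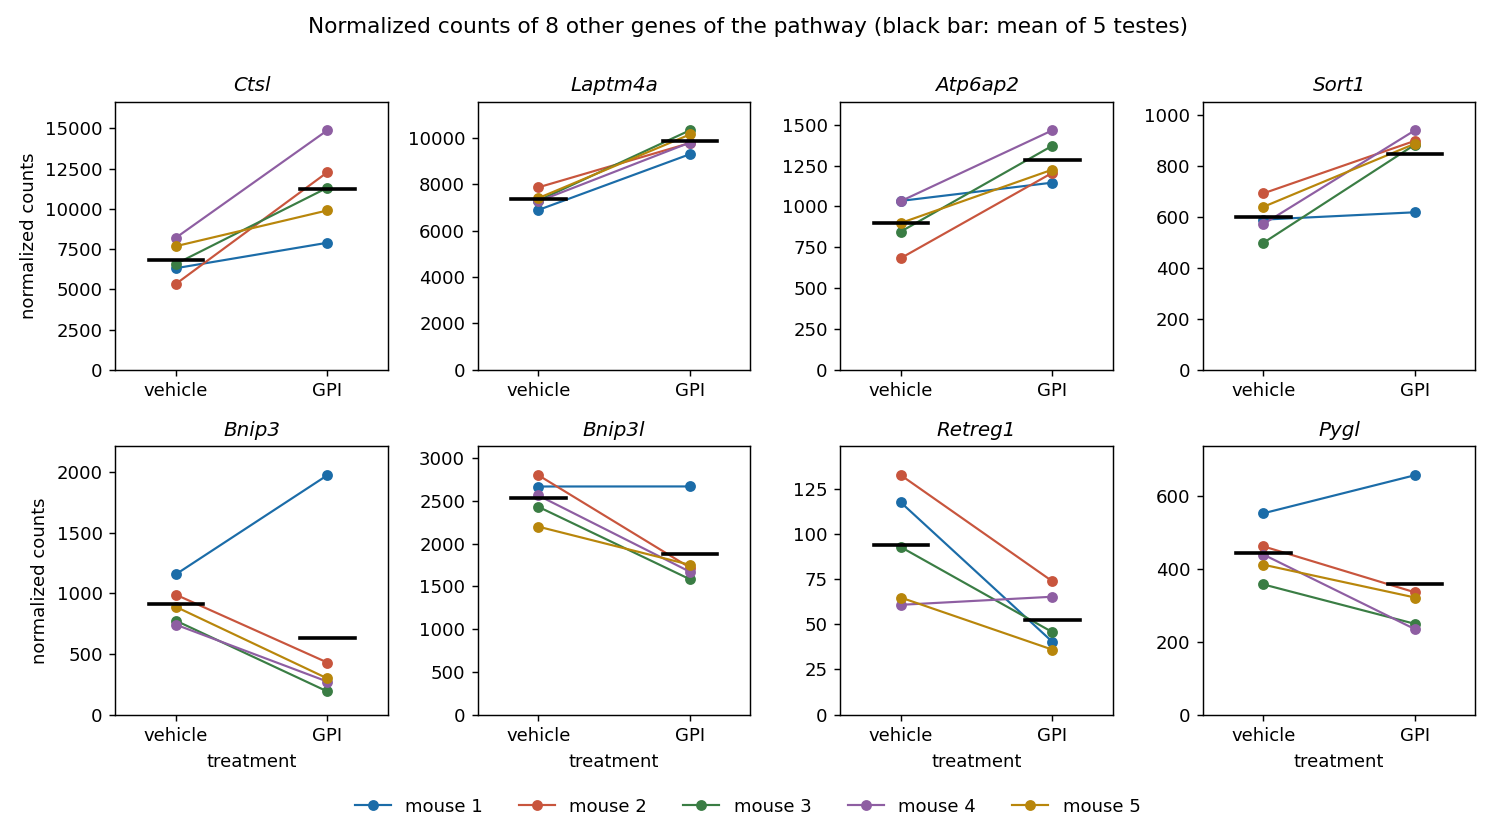
Normalized counts (vertical axes, each from 0) of 8 other genes of the pathway in the vehicle and GPI testes of 5 mice; lines join the testes of a mouse and black bars are means of 5. Laptm4a and Atp6ap2 are higher in all GPI testes than in any vehicle testis, and in Bnip3, Bnip3l and Pygl the GPI testis of mouse 1 (1974, 2668 and 657) stands above the other 4.

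Upstream of these genes, TFEB is held in the cytosol by the kinase complex mTORC1 on the lysosome. Of 23 tested genes of the TFEB family and mTORC1 signalling 4 were higher (17.4%, against 11.1% of all tested genes) and 0 lower, with a median of 0.10. The 3 with the smallest p by edgeR were Fnip1 (0.43, adjusted p = 0.00146) and Fnip2 (0.41, adjusted p = 0.00981), which encode partners of folliculin, and Lamtor4 (0.70, adjusted p = 0.0286, called in 7 of 12 alternatives), a part of the complex that anchors mTORC1. The count was 2 with DESeq2, 2 without mouse 4 and 2 without mouse 5.

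Markers of several cell types differed between the groups, and in bulk samples fewer cells of a type and less RNA per cell cannot be told apart. Of 10 tested macrophage markers 9 were lower with GPI; the summed normalized counts of the 11 listed, tested or not, were 1353, 1048, 1082, 967 and 1095 in the vehicle testes and 551, 481, 518, 287 and 293 in the GPI testes. Lyz2 was the most abundant (log2 fold change -1.65), Csf1r had -2.22 and Cd68 -0.76, while Adgre1 had -0.26 and was not called. The 2 groups of sums did not overlap, and no testis was without counts of this list. Macrophages are rich in lysosomes, and the part of these cells in the values of the lysosomal genes was not tested.

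Fetal Leydig cell markers moved the other way: 5 of 5 tested were higher, and the 6 listed had sums of 1294, 2715, 4003, 2004 and 5330.0 in the vehicle testes and 9746, 10176, 15790.3, 18136 and 12976 in the GPI testes. Hsd3b1 was the most abundant in the vehicle testes (log2 fold change 1.75), and Cyp17a1 (3.90), Cyp11a1 (2.90) and Star (0.79) were higher too. With GPI the mean of Cyp11a1 (5868 normalized counts) was above that of Hsd3b1 (5275). Of Sertoli cell markers 5 of 7 were higher, led in abundance by Sox9 (0.59), with Dmrt1, called in 6 of 12 alternatives (adjusted p from 0.00397 to 0.186), at 0.53 and Amh, not called, at 0.08; the sums were 2104, 3182, 2267, 2764 and 3112 with vehicle and 2641, 4135, 4101, 4908 and 3977 with GPI. The GPI testis of mouse 1 had the lowest Leydig and the lowest Sertoli sum of the 5 GPI testes.

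Endothelial markers were lower in 6 of 6, with sums of 6851, 7145, 6481, 7498 and 6669 against 743, 877, 587, 472 and 643. Cdh5 was the most abundant with vehicle (log2 fold change -3.63), and Pecam1 had -4.16. With GPI the mean of Kdr (282 normalized counts, log2 fold change -2.44) was above that of Cdh5 (232). Germ cell markers were lower in 4 of 5 tested, and the 7 listed went from sums of 1673, 2851, 2061, 2696 and 1496 to 902, 710.2, 748, 957 and 923; Ddx4 (-2.72), Dazl (-4.62) and Dppa3 (-5.20) fell, and the most abundant, Kit, which other cells also express, had -0.16 and was not called. The 5 erythroid markers were lower, from sums of 378, 636, 1188, 1223 and 1075 to 200.3, 157, 165, 147 and 246. Hbb-bt (log2 fold change -3.84) had the highest mean with vehicle. With GPI the means of Alas2 (85.9 normalized counts) and Hba-a1 (59.4, log2 fold change -1.59) were above that of Hbb-bt (25.4). The summed levels of the Leydig, endothelial, germ cell and erythroid lists did not overlap between the groups, and those of the Sertoli list did. In each mouse the Sertoli sum was higher with GPI than with vehicle.

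Interstitial progenitor markers split, with Pdgfra, the most abundant, higher (0.33), Tcf21 lower (-0.30, called in 9 of 12 alternatives) and Nr2f2 not called (-0.18), in all 1 of 5 higher and 2 of 5 lower, and sums between 14071 and 16563 with vehicle and between 14249 and 17188 with GPI. Of 5 mesonephros markers only Pax8 had enough counts to be tested (179 ± 136 with vehicle, 126 ± 40.6 with GPI; log2 fold change -0.28, not called, and between -0.55 and -0.01 over the 12 alternatives). The sums of the 5 were 566, 119, 275, 137 and 59.4 in the vehicle testes and 178, 228, 114, 109 and 94.8 in the GPI testes, with Pax8 the most abundant; the vehicle testis of mouse 1 was the highest of the 10, and the groups overlapped. Of the 4 that were not tested, Pax2 lay between 0 and 29.2 normalized counts over the 10 testes and Lhx1 between 0 and 15.5. Cdh16 went from 33.5 ± 48.7 with vehicle to 7.67 ± 8.35 with GPI (SD), lower in 4 of 5 mice. The part of the Leydig, Sertoli, endothelial, germ, blood, interstitial and mesonephros cells in the values of the 10 genes, and in those of the lysosomal and autophagy lists, was not tested.

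The genes with the most similar profiles were found by the root mean square difference of log2 normalized counts, centred on each gene's mean over the 10 testes. For Gaa they were Dnajc24 (0.149), Cmtr2 (0.149) and Prss48 (0.154), for Stbd1 Mcm9 (0.110), 9130401M01Rik (0.112) and Rslcan18 (0.120), and for Tfeb Prox2 (0.216), Usp50 (0.231) and D330023K18Rik (0.234). These distances describe likeness over 10 testes of 5 mice and carry no test.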

How the data were processed

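Per the labels and the study's methods, RNA of each testis was amplified (Ovation RNA-Seq System V2), and the authors aligned the read pairs against mm10 using STAR 2.5, then counted them per RefSeq Curated gene with featureCounts (Subread 1.5.0-p1), without regard to strand. The deposited values are raw counts; 24470 entries in 10 libraries were used, and the table has 0 further columns per sample. As amplified libraries without molecular identifiers, they give a precision only through how mice differ. Over 20 pairs of libraries given the same treatment, chi-square divided by its degrees of freedom lay between 6.42 and 27.81, highest in the 4 pairs with the GPI library of mouse 1, so no library is a copy of another of its treatment.

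Entries were filtered with edgeR's filterByExpr (minimum count 10, minimum total 15), scaled by TMM and tested with edgeR's quasi-likelihood test, with mouse and treatment in the design and Benjamini-Hochberg adjustment over all 13941 tested genes at an FDR of 0.05. The labels name the animal of each testis, which pairs the samples; correlations of deviations within a mouse were 0.155, -0.0398, 0.0296, 0.0817 and 0.0731, with a mean of -0.0147 between mice. Standard errors were found by dividing each log2 fold change, without its sign, by the root of its F statistic. The 95% intervals use the t distribution with 13.18 degrees of freedom and were not adjusted for the number of genes tested. Log2 ratios of single mice used a prior count of 2.

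Exon lengths came from GENCODE M21 transcripts paired with RefSeq, for 21261 entries, and promoters from RefSeq. The members and lists were chosen with earlier results of these data known. Genes named one by one were the 10 members; of each pathway list the 3 called genes with the smallest p in each direction, or every gene of a list with 5 or fewer tested; the first 3 and the most abundant marker of each cell type; and the 3 most similar profiles of Gaa, Stbd1 and Tfeb. Of the genes this rule selects, 2 are not printed, and Alas2 and Cdh16 are printed in addition. The 12 alternatives were limma-voom or DESeq2 as the tool, a design without the mouse block, scaling by DESeq2 size factors or by total counts, dropping the low-count filter or asking for 10 counts per library, and leaving out each mouse. The procedure was tested on simulated data. Versions were DESeq2 1.42.0, edgeR 4.0.16 and limma 3.58.1 under R 4.3.3, and Python 3.11.15, pandas 2.3.3, numpy 2.4.6 and matplotlib 3.10.9.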

Additional observations from a re-analysis of the deposited data

Results flagged for a closer look

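In 4 of 102 groups of values (each of the 10 members and 24 pathway genes with vehicle, with GPI and as log2 ratios of mice) 1 testis lay far from the other 4, by a gap over the group's range above 0.71; chance alone gives about 1 in 20 such groups. In each of the 4 it was the GPI testis of mouse 1: Bnip3 at 1974 normalized counts (gap over range 0.866), Bnip3l at 2668 (0.844), Sort1 at 617.8 (0.825) and Pygl at 657 (0.761). For Bnip3, Bnip3l and Pygl it was the highest of the GPI testes and for Sort1 the lowest. The same testis had the highest Gaa value of the 10, 366 normalized counts, and the lowest summed Leydig and Sertoli markers of the GPI testes, 9746 and 2641. Without mouse 1 the log2 fold change was -1.57 for Bnip3, -0.58 for Bnip3l, 0.58 for Sort1, -0.57 for Pygl and 0.33 for Gaa. The cause was not tested.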

How the results depend on the processing

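Over 12 alternatives the number of genes called ran from 2311 to 3472, against 3198. Among the 10 members 1 was called with DESeq2, 1 without the replicate block, 1 without the low-count filter (Gaa each time) and 1 with total counts only (Lamp1); leaving out each mouse gave 0 to 1. Without the replicate block 3108 genes were called, and no member other than Gaa. Map1lc3a, Map1lc3b, Gaa and Lamp1 kept their sign in 12 of 12. Signs turned, with ranges of log2 fold changes over the left-out mice, for Tfeb with total counts only (-0.0373) and without mouse 2, 3 or 4 (-0.144 to 0.235), Gabarap without mouse 1 (-0.0395 to 0.178), Gabarapl2 without mouse 1 or 5 (-0.0849 to 0.299), Lamp2 without mouse 3 (-0.00212 to 0.109), Stbd1 without mouse 4 (-0.197 to 0.0287), Gabarapl1 without mouse 4 or 5 (-0.0768 to 0.0255), and Amh without mouse 3 or 4 (-0.121 to 0.294).

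With total counts only, V-ATPase genes called numbered 3, autophagosome fusion 0 and cytosolic glycogenolysis 1. Autophagosome fusion also gave 0 with DESeq2, 0 with DESeq2 size factors, 0 without the low-count filter and 0 with at least 10 counts in every library, and 2 without the replicate block; the TFEB family and mTORC1 gave 2 with DESeq2, and cytosolic glycogenolysis 1 without the low-count filter. Leaving out each mouse gave 6 to 14 hydrolases, 1 to 8 V-ATPase genes, 0 to 1 of initiation, 0 to 1 of ATG8 conjugation, 1 to 2 receptors, 0 to 1 of fusion, 2 to 4 of the TFEB family and mTORC1, and 0 to 1 of cytosolic glycogenolysis. With 4 mice fewer samples enter; otherwise the cause was not tested. Membrane and transport genes numbered 10 or 11 throughout. Tfeb, Map1lc3a and Gabarapl2 had under 110 normalized counts in each testis and the widest 95% intervals of the 10 members.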
